A study of Homo sapiens with 4 samples.

Results

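The 10 genes described here encode ligands of the bone morphogenetic protein (BMP) and transforming growth factor beta (TGF-beta) pathways and genes known to respond to these ligands. They were chosen by name and not by their values, and all 10 were found by symbol among the 26475 genes listed in each count table. BMP4, BMP7 and TGFB2 encode ligands, BAMBI, SMAD6 and SMAD7 encode inhibitors, and ID1, ID2, ID3 and ID4 encode inhibitors of DNA binding. The values come from RNA sequencing of mammospheres, spheres of tumour cells grown without attachment, of MDA-MB-468, an established human basal-like triple-negative breast cancer line. The study asked what depletion of TCOF1, a nucleolar protein of ribosome biogenesis also called treacle, does to such cells.

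There were 4 conditions with 1 library each. All carried the Cas9 nuclease and a lentiviral construct whose guide RNA is switched on by doxycycline, and were sorted pools of infected cells, not clones. CTL and CTL+dox cells held the control construct, without and with doxycycline, and are labelled wild type. The gRNA2 and gRNA2+dox cells held a guide against TCOF1, again without and with doxycycline. Only gRNA2+dox is labelled as a TCOF1 knockout, and gRNA2 without doxycycline is labelled wild type. Each RNA sample pooled several plates, so a library is an average over cultures that cannot be separated. With 1 library per condition, no difference has a replicate check and no p-value is given. Every interval covers counting error only.

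BMP and TGF-beta ligands bind paired serine/threonine kinase receptors, which phosphorylate receptor SMADs. BMP receptors act mainly through SMAD1, SMAD5 and SMAD9, and TGF-beta and activin receptors through SMAD2 and SMAD3, and both groups of SMADs classically work with the shared partner SMAD4. The ID genes are known as direct BMP targets whose products bind E proteins and keep them from DNA, while SMAD6, SMAD7 and BAMBI are induced by the pathways and damp them. In breast tissue these pathways are known for roles in branching, differentiation and tumour cell plasticity.

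SMAD4 was almost without reads in these cells. It had 0 reads in CTL and 1 read in each other library, and MDA-MB-468 is known for the loss of this gene. ELAC1, which lies next to it on chromosome 18 and was named after its values were seen, had 2 to 8 reads. ME2, beyond ELAC1, had 1157 to 1644 reads and MEX3C, the neighbour on the other side, 2402 to 3082, and both were also named after their values were seen. The levels of the known target genes below were therefore measured in cells in which the transcript of the shared SMAD was not detected above the limit of 3 counts, which corresponds to 0.114 to 0.148 counts per 1000000 scaled reads (CPM) in these libraries.

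The libraries held 19960644 to 26322847 reads on genes. Values per library are given throughout in the order CTL, CTL+dox, gRNA2, gRNA2+dox. TCOF1 had 1019, 754, 1318 and 437 reads, that is 50.4, 33.5, 50.1 and 20.02 CPM. It was lowest in the library labelled knockout, with a log2 ratio of -1.32 to gRNA2 (95% interval -1.48 to -1.17) and of -0.74 to CTL+dox (-0.92 to -0.57), and it was also lower in CTL+dox than in CTL, by a log2 ratio of -0.59 (-0.73 to -0.45). All 10 markers of the carcinoma line, among them EGFR, KRT5 and EPCAM, were read in every library, with a summed level of 23777 to 26343 CPM. ESR1 had 4 to 13 reads, PGR 0 to 7 and ERBB2 270 to 387. Of the white blood cell markers, PTPRC and CD3E had 1 to 3 reads and LYZ had 5 to 9, while CD68, which carcinoma cells can also express, made up nearly all of their summed 94.7 to 116 CPM. The 5 fibroblast and endothelial markers summed to 17.9 to 22.5 CPM, nearly all of it COL1A1, with PDGFRB at 1 to 5 reads. In bulk RNA, fewer cells expressing a gene and less of its RNA per cell cannot be told apart.

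The sequences upstream of the genes were searched for letters known from SMAD binding, which does not test whether a gene is a SMAD target. SMAD proteins are known to bind GTCT or its reverse complement AGAC, the palindrome GTCTAGAC that joins both, and, for BMP SMADs, GC-rich elements such as the palindrome GGCGCC. The 250 bases upstream of annotated starts were read from RefSeq (GRCh38.p14) and searched for these letters on both strands, and GTCTAGAC holds a GTCT and an AGAC within it. Windows were found for 9 of the 10 genes, 13 windows in all with several each for BMP4 and SMAD7, and none for BMP7. GTCTAGAC stood in 1 of the 13 windows, that of SMAD6, against 64 of the 35116 windows of all genes (0.182%). GGCGCC stood in 2 windows, those of BAMBI and of 1 start of BMP4, against 16.4% of all windows, and the BAMBI window held 3 copies, where 0.527% of all windows held 3 or more. GTCT or AGAC stood in 12 of 13 windows against 77.5% of all. The windows of SMAD6 and BAMBI are shown because they hold the rarest matches, and that of ID1 as the ID gene best known as a BMP target, whose window held 3 copies of GTCT or AGAC and neither palindrome. Each runs 5′ to 3′ on the forward strand and ends at the base before the start, with matches to GTCT, AGAC and GGCGCC in capitals. They lie at chr15:66701986-66702235 (SMAD6), chr10:28677271-28677520 (BAMBI) and chr20:31605039-31605288 (ID1).
SMAD6: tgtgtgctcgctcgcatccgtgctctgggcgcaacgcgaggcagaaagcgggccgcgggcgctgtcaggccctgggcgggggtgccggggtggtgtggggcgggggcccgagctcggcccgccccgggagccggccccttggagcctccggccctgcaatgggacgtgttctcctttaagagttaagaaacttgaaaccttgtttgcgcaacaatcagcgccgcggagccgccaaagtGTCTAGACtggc
BAMBI: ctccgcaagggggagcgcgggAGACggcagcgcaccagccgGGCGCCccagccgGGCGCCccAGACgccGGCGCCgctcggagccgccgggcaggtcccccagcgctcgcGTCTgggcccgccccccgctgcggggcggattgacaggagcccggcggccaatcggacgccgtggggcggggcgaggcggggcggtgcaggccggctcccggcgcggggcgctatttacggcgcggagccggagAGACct
ID1: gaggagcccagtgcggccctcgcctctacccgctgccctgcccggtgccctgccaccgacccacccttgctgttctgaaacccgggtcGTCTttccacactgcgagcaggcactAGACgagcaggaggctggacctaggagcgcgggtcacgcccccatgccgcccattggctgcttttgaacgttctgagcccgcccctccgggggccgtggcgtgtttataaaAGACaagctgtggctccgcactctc
In SMAD6 the palindrome begins 12 bases upstream of the start. In BAMBI the copies of GGCGCC begin 209, 196 and 181 bases upstream. A match is a description of the letters and not of a bound site, since no binding was measured here. Sequence beyond the 250 bases was not searched, so a window without a match says nothing of elements further away.

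Compared per length of transcript, the 10 genes spanned a wide range of levels. The level here is the mean over the 4 libraries in CPM divided by the length of the canonical transcript in kilobases (RPKM). ID2 stood highest at 53.1 RPKM, followed by BAMBI at 46.2, TGFB2 at 23.9, ID1 at 16.1, ID4 at 14.8, SMAD7 at 13.1, ID3 at 6.01, BMP4 at 5.05, BMP7 at 2.15 and SMAD6 at 1.01. Of the genes tested that have a length, 89.7% lay below ID2 and 21.6% below SMAD6. In this order the ranges over the 4 libraries overlapped between ID2 and BAMBI, between ID1 and ID4 and between ID3 and BMP4, and no other neighbours overlapped. A gene that uses a transcript of another length would shift in this order. All other levels below are CPM scaled between libraries by the trimmed mean of M values, and they compare libraries for 1 gene and not genes with each other.

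Among the ligands, BMP7 stood out by its range over the libraries, BMP4 was nearly flat and TGFB2, the deepest read of the 10 genes, differed between all 4 libraries by modest amounts. Positions are those of RefSeq on GRCh38.p14. BMP4, at chr14:53949736-53956891, encodes a ligand that signals through BMP type I receptors. It had 207, 206, 241 and 229 reads, or 10.2, 9.16, 9.15 and 10.5 CPM. The counting intervals of all 4 overlapped and the highest library was 1.15-fold above the lowest. The log2 ratio of gRNA2+dox was 0.20 to gRNA2 (-0.07 to 0.46) and 0.20 to CTL+dox (-0.08 to 0.47).

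BMP7, at chr20:57168753-57266641, encodes a ligand known for its part in epithelial differentiation. It had 215, 227, 198 and 137 reads, or 10.6, 10.1, 7.52 and 6.27 CPM. Both libraries of gRNA2 cells were below both libraries of CTL cells. gRNA2+dox was 0.623-fold CTL+dox, a log2 ratio of -0.68 (-1.002 to -0.37), but against gRNA2, the same cells without doxycycline, the log2 ratio was -0.26 with an interval that included 0 (-0.59 to 0.06). The gRNA2 cells were already lower than CTL cells without doxycycline, at 0.708-fold or a log2 ratio of -0.50 (-0.78 to -0.21). This difference between the pools, present where TCOF1 was at 50.1 against 50.4 CPM, stands beside any reading of gRNA2+dox against CTL+dox, and its part in that ratio was not tested. The antisense gene BMP7-AS1 had 0 or 1 read.

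TGFB2, at chr1:218345336-218444619, encodes a TGF-beta isoform. It had 2911, 2765, 4256 and 2897 reads, or 144, 123, 162 and 133 CPM. With so many reads the counting intervals of all 4 libraries were apart, although the highest was 1.32-fold above the lowest. The antisense gene TGFB2-AS1 had 1 to 7 reads. Both libraries with doxycycline were below both without it. The log2 ratio of CTL+dox to CTL was -0.23 (-0.30 to -0.15) and that of gRNA2+dox to gRNA2 was -0.28 (-0.35 to -0.22), and these differed by -0.06 with a standard error from counting of 0.05, an interval that included 0 (-0.16 to 0.04). Against CTL+dox, gRNA2+dox was higher by a log2 ratio of 0.11 (0.03 to 0.19), so the direction depended on the reference library.

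**Figure D1:**
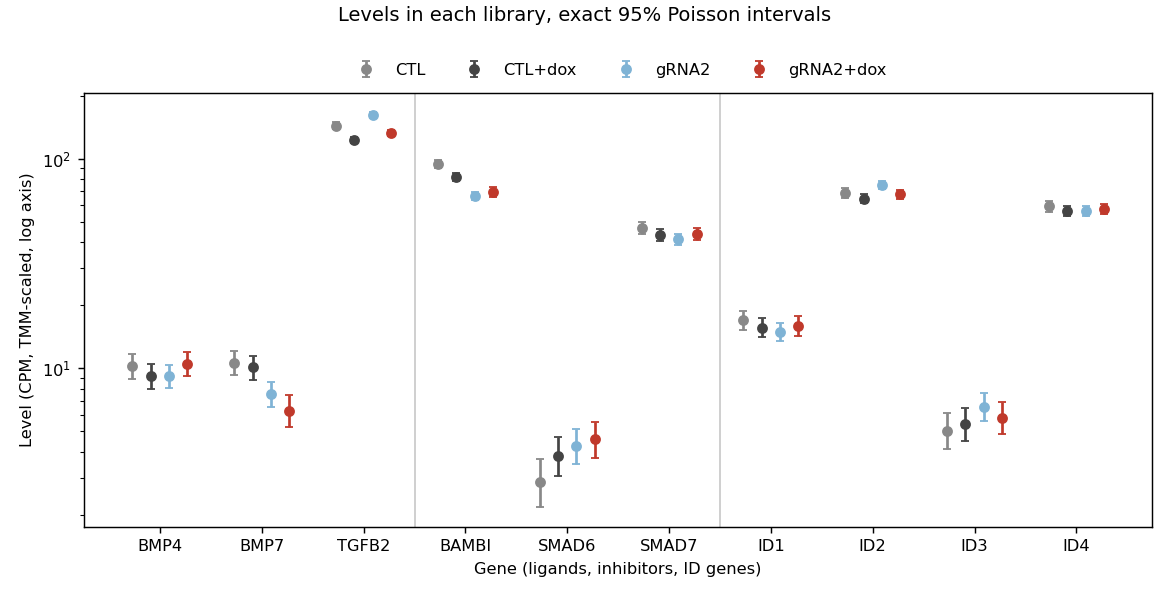
Levels of the 10 genes in CPM on a log axis, in each of the 4 libraries (colours), with bars for exact 95% Poisson intervals of the reads and genes ordered as ligands, inhibitors and ID genes. BMP7 and BAMBI are lower in both libraries of gRNA2 cells, TGFB2 is lower in both libraries with doxycycline, and the points of ID4 lie between 56.3 and 59.2 CPM.

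Among the inhibitors, BAMBI was lower and SMAD6 higher in gRNA2 than in CTL, and for both the interval between gRNA2+dox and gRNA2 included 0. BAMBI, at chr10:28677521-28682932, encodes a pseudoreceptor that lacks the kinase domain. It had 1918, 1844, 1751 and 1516 reads, or 94.8, 82.0, 66.5 and 69.4 CPM. CTL was highest, CTL+dox next, and the gRNA2 and gRNA2+dox libraries were lowest with overlapping intervals. The log2 ratio was -0.51 for gRNA2 to CTL (-0.61 to -0.42), -0.24 for gRNA2+dox to CTL+dox (-0.34 to -0.14) and -0.21 for CTL+dox to CTL (-0.30 to -0.12). Between gRNA2+dox and gRNA2 it was 0.06, with an interval that included 0 (-0.04 to 0.16).

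SMAD6, at chr15:66702236-66782849, encodes an inhibitory SMAD that acts mainly on BMP signalling, and is the gene whose upstream window holds GTCTAGAC. It had 58, 86, 112 and 100 reads, or 2.87, 3.82, 4.25 and 4.58 CPM. CTL was the lowest library, although the intervals of neighbours in this order all overlapped. Between gRNA2 and CTL the log2 ratio was 0.57 (0.10 to 1.05), or 1.48-fold, and that of CTL+dox to CTL was 0.41 with an interval that included 0 (-0.08 to 0.92). gRNA2+dox had a log2 ratio of 0.11 to gRNA2 (-0.30 to 0.51) and of 0.26 to CTL+dox (-0.17 to 0.69). With so few reads these intervals were the widest of the 10 genes in both comparisons.

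SMAD7, at chr18:48919853-48950965, encodes an inhibitory SMAD that acts on both branches. It had 948, 972, 1088 and 954 reads, or 46.9, 43.2, 41.3 and 43.7 CPM. The highest library was 1.13-fold above the lowest and all neighbouring intervals overlapped. gRNA2+dox had a log2 ratio of 0.08 to gRNA2 (-0.05 to 0.21) and of 0.02 to CTL+dox (-0.11 to 0.15). CTL and gRNA2 differed by a log2 ratio of -0.18 (-0.31 to -0.05).

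The ID genes were the flattest group, and their summed level was 149.99, 142, 153 and 147 CPM. ID1, at chr20:31605289-31606510, had 343, 352, 394 and 348 reads, or 16.95, 15.6, 14.96 and 15.9 CPM. All intervals overlapped, and the log2 ratio of gRNA2+dox was 0.09 to gRNA2 (-0.12 to 0.30) and 0.03 to CTL+dox (-0.19 to 0.24). ID2, at chr2:8682056-8684461, carried the most reads of the family. It had 1392, 1450, 1968 and 1478 reads, or 68.8, 64.5, 74.7 and 67.7 CPM. It was the ID gene with an interval apart from 0 between gRNA2+dox and gRNA2, at a log2 ratio of -0.14 (-0.24 to -0.04), while against CTL+dox the ratio was 0.07 (-0.03 to 0.18).

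ID3, at chr1:23557926-23559501, had the fewest reads of the family, with 102, 122, 173 and 127 reads, or 5.04, 5.42, 6.57 and 5.82 CPM. The neighbouring intervals overlapped, and gRNA2 against CTL gave a log2 ratio of 0.38 (0.02 to 0.75). Between gRNA2+dox and gRNA2 it was -0.18 (-0.52 to 0.16) and between gRNA2+dox and CTL+dox 0.10 (-0.27 to 0.47). ID4, at chr6:19837370-19842197, is known in breast tissue from basal cells and basal-like tumours. It had 1198, 1270, 1482 and 1260 reads, or 59.2, 56.5, 56.3 and 57.7 CPM. Its 4 libraries lay within 1.05-fold, and the log2 ratio of gRNA2+dox was 0.04 to gRNA2 (-0.07 to 0.15) and 0.03 to CTL+dox (-0.08 to 0.15).

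The range of log2 CPM over the 4 libraries placed the genes between the extremes of the transcriptome. Among the 12030 genes with a mean of at least 50 reads the median range was 0.26. BMP7, with a range of 0.76, lay above 96.1% of these genes, SMAD6 with 0.67 above 94.2% and BAMBI with 0.51 above 87.2%. TGFB2 (0.40) and ID3 (0.38) lay above 75.8% and 73.7%. At the other end ID2 (0.21), BMP4 (0.20), SMAD7 (0.18) and ID1 (0.18) lay below the median, and ID4, with 0.07, lay above 3.16%. Low counts widen such a range, and SMAD6 had the fewest reads of the 10.

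Each comparison was read with 3 rules of different strictness. The strictest takes the study's cutoffs for lower genes in both directions, with a 1% bound in place of the study's GFOLD value. By the study's cutoffs, a log2 ratio past 1 in size with a 1% bound past 0.5, 0 of the 10 genes were called between gRNA2+dox and gRNA2, where 0.585% of the 15204 genes tested were, nor between gRNA2+dox and CTL+dox, where 1.51% were. The same held between CTL+dox and CTL, with 0.27% called, and between gRNA2 and CTL, with 0.592%. By a looser rule, past 1.5-fold with the 95% interval apart from 0, 0 of 10 were called between gRNA2+dox and gRNA2 (4.02% of all genes), 1 between gRNA2+dox and CTL+dox, which was BMP7 (6.75%, and 4.2% in its lower direction), 0 between CTL+dox and CTL (3.14%) and 0 between gRNA2 and CTL (4.08%). Every library serves in 2 of the 4 comparisons, which are therefore not independent.

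By the interval alone, ID2 and TGFB2 were lower in gRNA2+dox than in gRNA2, 2 of 10 against 30.7% of all genes (14.9% in the lower direction). Between gRNA2+dox and CTL+dox, BMP7 and BAMBI were lower and TGFB2 higher, 3 of 10 against 40.2%. Between CTL+dox and CTL, BAMBI and TGFB2 were lower, 2 of 10 against 30.4% (15.6% lower). Of the genes with a mean of at least 50 reads, which all 10 have, 35.8%, 46.7% and 35.8% had an interval apart from 0 in these 3 comparisons, and the share of the 10 genes exceeded neither figure in any of them. Between gRNA2 and CTL, ID2, ID3, SMAD6 and TGFB2 were higher and SMAD7, BAMBI and BMP7 lower, 7 of 10 against 30.8% of all genes and 35.7% of those with a mean of at least 50 reads. The median log2 ratio of the 10 genes was 0.05 between gRNA2+dox and gRNA2, 0.05 between gRNA2+dox and CTL+dox, -0.10 between CTL+dox and CTL and -0.12 between gRNA2 and CTL, and that of all genes lay between -0.0032 and 0.00085.

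**Figure D2:**
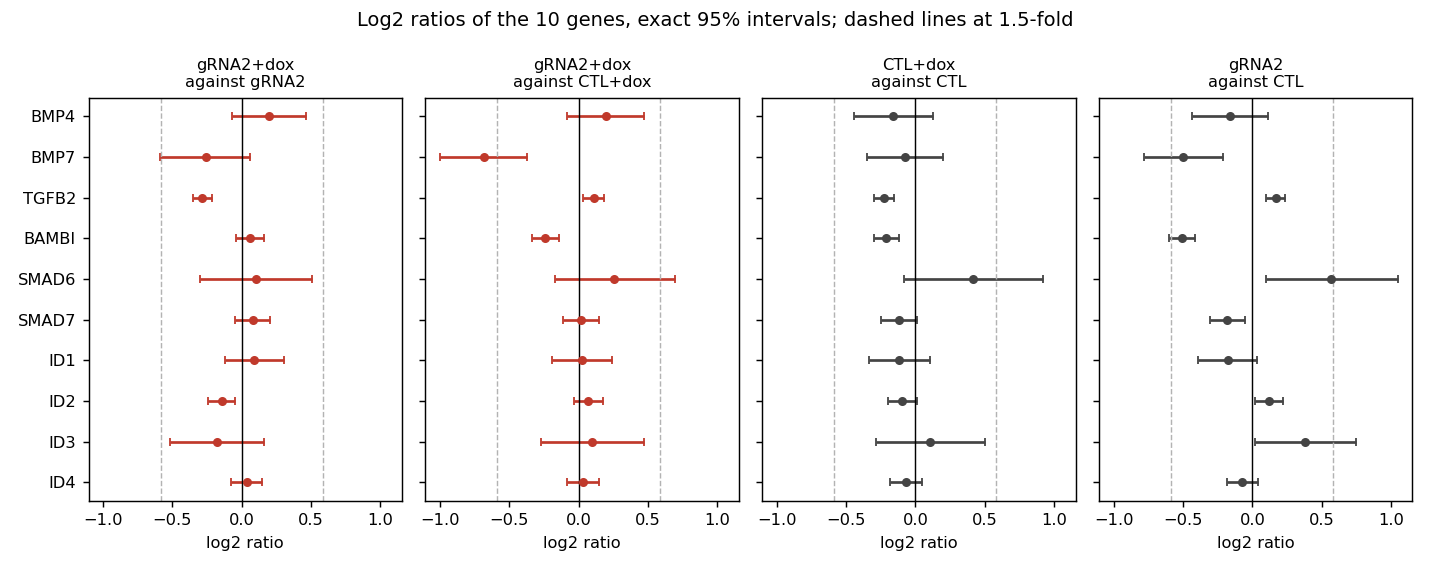
Log2 ratios of the 10 genes in 4 comparisons of 1 library with 1 library, with bars for exact 95% intervals from the reads and dashed lines at 1.5-fold. BMP7 in gRNA2+dox against CTL+dox, at -0.68, is the point past a dashed line with its interval apart from 0, and the points of gRNA2+dox against gRNA2 lie between -0.28 and 0.20.

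The crossed design also gives the difference between the doxycycline log2 ratio in gRNA2 cells and that in CTL cells, with a standard error from counting. For TCOF1 this difference was -0.73 ± 0.11. BAMBI, lower with doxycycline in CTL cells and level in gRNA2 cells, had a difference of 0.27 ± 0.07 (0.14 to 0.41). SMAD7 had 0.20 ± 0.09 (0.02 to 0.38). These were the 2 of 10 genes with an interval apart from 0, against 26.6% of all genes. BMP4 had 0.36 ± 0.19 (-0.03 to 0.74), BMP7 -0.19 ± 0.21 (-0.60 to 0.23) and SMAD6 -0.31 ± 0.31 (-0.92 to 0.31). For the ID genes it was 0.21 ± 0.15 for ID1, -0.05 ± 0.07 for ID2, -0.28 ± 0.26 for ID3 and 0.10 ± 0.08 for ID4, none apart from 0.

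The receptors and receptor SMADs through which these ligands act showed no difference past the looser rule in gRNA2+dox. Of 14 receptor genes listed, 12 had enough reads to be tested, while ACVRL1 had 0 to 7 reads and AMHR2 0 to 4. Of the 12, 0 passed the looser rule in gRNA2+dox against either gRNA2 or CTL+dox, where 4.02% and 6.75% of all genes passed. With so few genes, 0 is near that share. By the interval alone 3 of the 12 were apart from 0 against gRNA2 and 6 against CTL+dox. These are 25% and 50%, where all genes had 30.7% and 40.2%. The deepest read were TGFBR1, the TGF-beta type I receptor, with 3437 to 4153 reads, and BMPR2, the BMP type II receptor, with 2314 to 3260. Of the BMP type I receptors, ACVR1 had 1815 to 2360 reads, BMPR1A 723 to 928 and BMPR1B 11 to 25. Of the SMADs, SMAD2 had 1942 to 2245 reads, SMAD5 805 to 1146, SMAD3 487 to 619, SMAD1 316 to 425 and SMAD9 13 to 19. None of the 5 passed the looser rule in either comparison, against the same 4.02% and 6.75% of all genes. SMAD5, a BMP receptor SMAD, had log2 ratios of 0.20 (0.08 to 0.32) to gRNA2 and 0.23 (0.10 to 0.36) to CTL+dox.

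**Figure D3:**
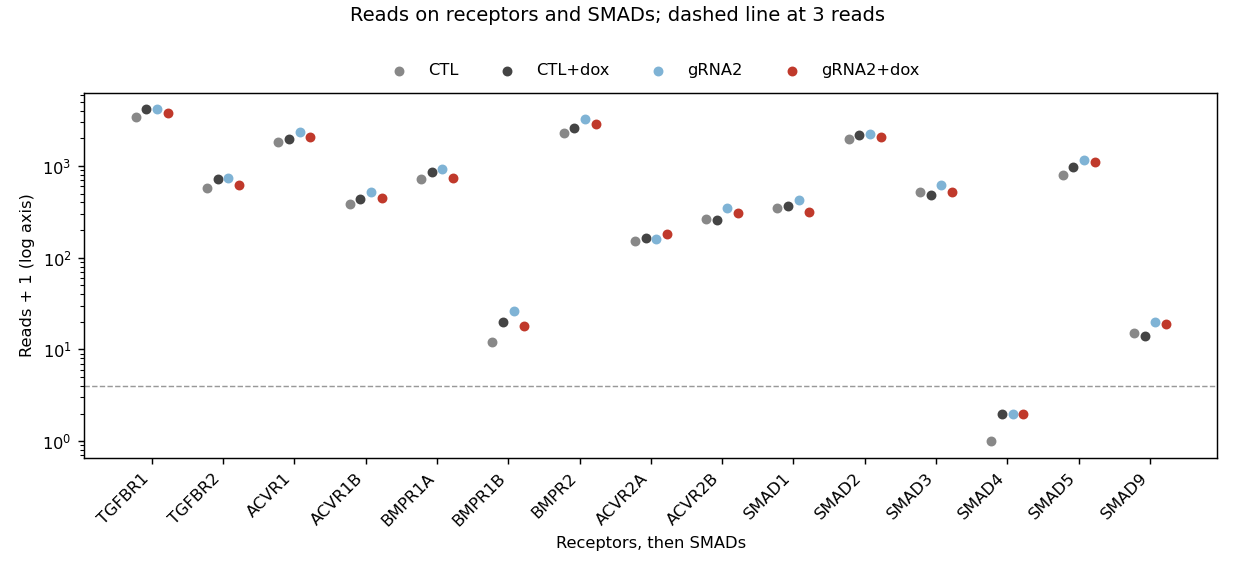
Reads plus 1 on a log axis for the main receptors and the SMADs in the 4 libraries (colours), with a dashed line at 3 reads. SMAD4 lies below the line in every library, at 0 or 1 read, while the other signalling SMADs and the receptors lie above it.

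Some other ligands held larger differences between gRNA2+dox and gRNA2 than BMP4, BMP7 and TGFB2. INHBA, which encodes the subunit of activin A, had 1185, 1437, 1631 and 2268 reads, or 58.6, 63.9, 61.9 and 104 CPM. It was higher in gRNA2+dox alone, by a log2 ratio of 0.75 to gRNA2 (0.65 to 0.84) and 0.70 to CTL+dox (0.61 to 0.80), past the looser rule and not the study's cutoffs. INHA, the inhibin alpha subunit that opposes activin formation, had 32, 32, 37 and 12 reads, with log2 ratios of -1.32 (-2.43 to -0.38) and -1.34 (-2.46 to -0.38). These were the 2 of 10 tested TGF-beta and activin ligand genes past the looser rule in both comparisons, where 4.02% and 6.75% of all genes passed. The deepest read of that list besides TGFB2 were TGFB1, with 104, 103, 139 and 139 CPM, and INHBB, with 112, 106, 104 and 132 CPM.

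Among the 9 tested BMP and GDF ligands, 0 passed the looser rule against gRNA2 (4.02% of all genes). Against CTL+dox 2 did so, both lower (6.75% of all genes, and 4.2% in the lower direction). These were BMP7 and BMP6, a ligand known from iron regulation. BMP6 had 390, 469, 295 and 257 reads, or 19.3, 20.8, 11.2 and 11.8 CPM. Like BMP7 it was lower in both libraries of gRNA2 cells, with log2 ratios of -0.82 for gRNA2+dox to CTL+dox (-1.05 to -0.60), -0.78 for gRNA2 to CTL (-1.01 to -0.56) and 0.07 for gRNA2+dox to gRNA2 (-0.18 to 0.32). Its locus overlaps TXNDC5 at the edge, where unstranded reads cannot be assigned. The deepest read of the list were BMP2, with 803, 1183, 1093 and 940 reads, and BMP8B, with 718, 788, 873 and 707.

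Of the 20 tested extracellular regulators, 1 passed the looser rule against gRNA2 and 1 against CTL+dox, where 4.02% and 6.75% of all genes passed. In both comparisons this was SOSTDC1. It encodes a secreted antagonist that binds BMPs, also known to act on WNT signalling. It had 175, 230, 118 and 45 reads, or 8.65, 10.2, 4.48 and 2.06 CPM. gRNA2+dox was the lowest library and gRNA2 the next. The log2 ratio of gRNA2+dox was -1.11 to gRNA2 (-1.65 to -0.61) and -2.30 to CTL+dox (-2.81 to -1.84), both past the study's cutoffs, and that of gRNA2 to CTL was -0.95 (-1.30 to -0.60). Against gRNA2 it missed the study's cutoffs once the libraries were thinned to equal totals, at -0.94, or with a coefficient of variation of 0.1 added. TWSG1 and THBS1, the deepest read of this list, had 3581 to 4500 and 3022 to 4316 reads.

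**Figure D4:**
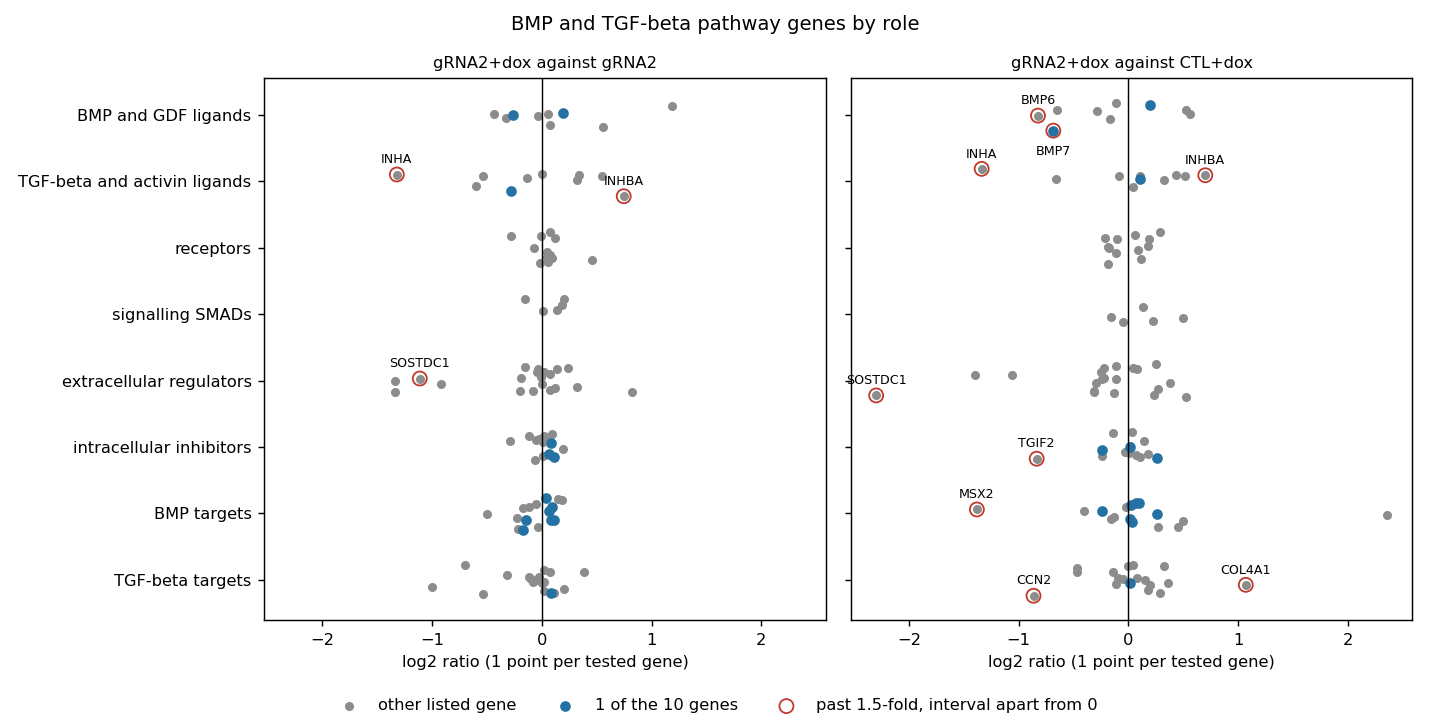
Log2 ratios of the tested genes of 8 pathway lists reported here in gRNA2+dox against gRNA2 (left) and against CTL+dox (right), 1 point per gene in each list that holds it, with the 10 genes in blue and genes past 1.5-fold with the 95% interval apart from 0 ringed and named. SOSTDC1 lies at -1.11 and -2.30, INHBA at 0.75 and 0.70 and INHA at -1.32 and -1.34, and no receptor or SMAD is ringed.

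With so few genes, the counts of intracellular inhibitors and BMP targets past the looser rule were near the share of all genes. That share was 4.02% against gRNA2 and 6.75% against CTL+dox. Of 14 intracellular inhibitors, 4 had an interval apart from 0 against gRNA2 and 7 against CTL+dox, 28.6% and 50% where all genes had 30.7% and 40.2%. Of the same 14, 0 passed the looser rule against gRNA2 and 1 against CTL+dox, the corepressor gene TGIF2, with 21, 39, 31 and 21 reads and a log2 ratio of -0.84 (-1.69 to -0.05), a call lost when the libraries were thinned to equal totals. The deepest read inhibitors were PMEPA1, with 4914 to 6663 reads, and FKBP1A, with 4931 to 6664. Of 16 tested BMP target genes, which include the ID genes, SMAD6, SMAD7 and BAMBI, 0 passed against gRNA2 and 1 against CTL+dox. This was the homeobox gene MSX2, with 18, 33, 15 and 12 reads and a log2 ratio of -1.38 (-2.50 to -0.43). The intervals of the 16 genes were apart from 0 in 3 and 4 cases, 18.8% and 25%. The deepest read of these were BAMBI and ID2.

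The TGF-beta target genes had an interval apart from 0 more often than all genes, some being higher and some lower. Part of these intervals lay at small ratios of deeply read genes. Of 19 tested, 9 had an interval apart from 0 against gRNA2, 3 higher and 6 lower, or 47.4% against 30.7% of all genes. Of all 15204 genes, 2404 were higher and 2265 lower in this way, so the 3 higher targets were no excess. Against CTL+dox these were 12, with 7 higher and 5 lower, or 63.2% against 40.2%. Between gRNA2 and CTL, both labelled wild type, they were 13, with 9 higher and 4 lower, or 68.4% against 30.8%. A share above that of all genes was thus seen in all 3 comparisons, which share libraries. Many reads narrow an interval, and against gRNA2 the 9 include CDKN1A at a log2 ratio of -0.03 and FN1 at 0.11. Of all genes with a mean of at least 50 reads, 35.8%, 46.7% and 35.7% had one apart from 0 in these 3 comparisons. Genes of like depth to the most deeply read targets were not compared. The looser rule was passed by 1 gene against gRNA2, 5.26% where 4.02% of all genes passed. Against CTL+dox it was passed by 3, CCN2 and COL4A1 among them, 15.8% where 6.75% of all genes passed. CCN2, the connective tissue growth factor gene listed as CTGF, had 270, 308, 288 and 164 reads and a log2 ratio of -0.86 to CTL+dox (-1.15 to -0.59) and of -0.54 to gRNA2 (-0.83 to -0.26). COL4A1, a basement membrane collagen gene, went the other way on few reads, with 15, 12, 23 and 25 and a log2 ratio of 1.07 to CTL+dox (0.06 to 2.23), also lost on thinning. FN1 and CDKN1A, the deepest read targets, had 30649 to 46990 and 17827 to 23942 reads. The median log2 ratio of this list was -0.03 against gRNA2 and 0.02 against CTL+dox, and that of the BMP targets -0.04 and 0.03. In the same order it was 0.05 and -0.17 for BMP and GDF ligands, -0.06 and 0.11 for TGF-beta and activin ligands, 0.05 and -0.02 for receptors and 0.14 and 0.13 for signalling SMADs. For extracellular regulators it was -0.02 and -0.18 and for intracellular inhibitors 0.02 and 0.01, where the median of all genes was within the range given above and 4.02% and 6.75% of all genes passed the looser rule.

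Of the E proteins, the partners that ID proteins bind, TCF3 had 3101, 2885, 4303 and 3475 reads. TCF4 and TCF12 were listed with 0 to 3 reads in every library, under the minimum of 10 for a comparison. Whether the low count of TCF12 comes from how reads of its locus were assigned was not settled, so it is not read as a level of the transcript. The log2 ratio of TCF3 was -0.04 for gRNA2+dox to gRNA2 and 0.31 for gRNA2+dox to CTL+dox.

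**Figure D5:**
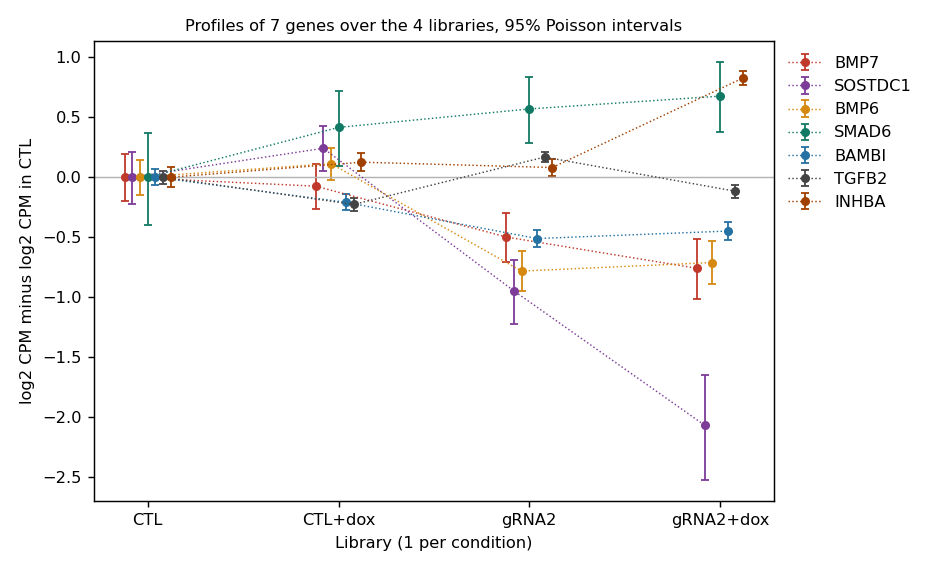
Log2 CPM of 7 genes in each library minus that in CTL, with bars for 95% Poisson intervals. BMP7, BMP6 and BAMBI are lower in both libraries of gRNA2 cells, SOSTDC1 is lowest in gRNA2+dox, and INHBA stands apart in gRNA2+dox, with 104 CPM against 58.6 to 63.9 in the other libraries.

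The genes whose pattern over the 4 libraries was nearest to that of BMP7, SMAD6 and BAMBI, the widest ranging of the 10, were sought by the Euclidean distance of centred log2 CPM among 12029 other genes with a mean of at least 50 reads. For BMP7 they were FZD7 (distance 0.063), PROM1 (0.066) and EREG (0.071). FZD7, a WNT receptor gene, had 73.6, 73.7, 54.9 and 45.5 CPM. For SMAD6 they were SUN3 (0.016), OXSM (0.062) and LAPTM5 (0.086), and for BAMBI ABALON (0.017), SFT2D3 (0.029) and ANKRD16 (0.044). With 4 points many genes come close, and 92 genes lay within 0.2 of BMP7, 49 of SMAD6 and 275 of BAMBI.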

How the data were processed

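RNA of MDA-MB-468 mammospheres was measured in 4 libraries, 1 per condition. According to the methods of the study, the authors trimmed reads with fastp and aligned them with STAR, and they deposited its read counts per gene, which are not normalised. The submitters' processing notes name hg38, while the annotation and the versions are not given in the sources used here. The counts used were those of both strands together, and the strand columns gave 49.0% to 49.1% to the first strand. Reads that map to several places or to overlapping genes are not counted by STAR, so such genes lose reads. Reads without a gene, 19.0% to 20.3%, were left out.

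Scaling was by TMM (edgeR 4.0.16, R 4.3.3), and log2 ratios used a prior count of 0.5. Genes with at least 10 reads in at least 1 library were tested, 15204 of 26475. Ratios carry exact 95% Clopper-Pearson intervals, from the share that 1 library holds of a gene's reads in both, and levels carry exact Poisson intervals. The study's cutoffs were a log2 ratio past 1 and a GFOLD value past 0.5 in size, given for lower genes and used here in both directions. GFOLD was not run, and a 1% or 99% Poisson posterior bound, tested on simulated data, took its place (Python 3.11.15, numpy 2.4.6, scipy 1.17.1). The looser rule was 1.5-fold with the 95% interval apart from 0. Intervals hold no variation between cultures, and a value below 3 counts was taken as not detected.

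Transcript lengths come from GENCODE 44 lifted to GRCh37, used for length only, for 90.8% of tested genes. Positions and upstream sequences come from RefSeq on GRCh38.p14, matched by symbol. Named were the 10 genes, TCOF1, the SMADs, every gene of 9 pathway lists called by either rule in gRNA2+dox against gRNA2 or CTL+dox, the 2 deepest read of each list, and the 3 nearest in pattern to the 3 widest ranging of the 10 genes. Some listed genes that the rule names are not reported here. The genes, lists and rules were chosen with earlier results of these data known. Alternatives changed the scaling (size factors of DESeq2 1.42.0, or total counts alone), the filter (none, or 50 counts), the depth (all libraries thinned to the smallest), the prior count (5), the quantile of the bound (5%) or the assumed variation between cultures (coefficient of variation of 0.1). The same alternatives were added for the pathway genes after the data were seen.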

Additional observations from a re-analysis of the deposited data

How the results depend on the processing

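No paired analysis was possible because every condition was measured in 1 library. Leaving out a library would remove its condition, so this was not done. Of 50 values of the 10 genes, each under 8 alternatives, the largest shift was 0.13 on the log2 scale, under thinning to the smallest total. The sign turned in 1 case, SMAD7 in gRNA2+dox against CTL+dox, at -0.0076 with total counts only against 0.02. The count of the 10 genes past the looser rule was the same under all 8 except between gRNA2 and CTL, where thinning gave 1 gene in place of 0, SMAD6 at a log2 ratio of 0.60 against 0.57. Scaling moved the median of all genes by at most 0.024.

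Among the pathway genes past either rule, 90 calls were kept, 9 changed and 5 could not be made because the gene fell under 50 counts. SOSTDC1 against gRNA2 missed the study's cutoffs under thinning and with the added variation. Against CTL+dox the looser call of TGIF2 was lost under both of these, and that of COL4A1 under thinning. With the bound at the 5% quantile INHA in both comparisons and MSX2 against CTL+dox also passed the study's cutoffs.

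The number of genes called among all genes changed with the settings. The filters also change how many genes are tested, 12467 with at least 50 counts and 26475 without a filter, in place of 15204. The counts under these filters are therefore not shares of the same set. By the study's cutoffs 89 genes were called between gRNA2+dox and gRNA2, 36 with at least 50 counts and 218 with the 5% bound. Between gRNA2+dox and CTL+dox these were 230, 140 and 402, between CTL+dox and CTL 41, 6 and 146, with 69 without a filter and 27 with the added variation, and between gRNA2 and CTL 90, 39 and 208. By the looser rule the counts of 611, 1027, 477 and 620 in the same order became 349, 650, 224 and 325 with at least 50 counts.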
